A study of Drosophila melanogaster with 18 samples.

Results

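The comparison described here is that of INT with NINT females of Drosophila melanogaster: 3 INT female libraries against 3 NINT female libraries, out of 18 libraries in the series, over the 16747 entries of the female count table, of which 13169 passed a filter on low counts. RNA came from whole flies 5 days old. The INT and NINT flies are both labelled as genetically heterogeneous and were both taken at generation F12, and the labels do not spell out what either abbreviation stands for. A group F0, with 3 female libraries, is labelled with 10 strains (Canton-S, Harwich, Oregon-R-C, BER_2, Wild_1A, DGRP-100, w1118, the marker lines mwh and flr3, and flr3 in Oregon R). It entered the fit to share the estimate of the spread, and its values are given last. The series title concerns intelligence and longevity, and the comparison asks which transcripts set INT females apart from NINT females. The labels say neither whether the replicates came from separate cultures nor how many flies were pooled, so p-values measure only the spread between these libraries, which may be technical.

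As background, RNA of a whole adult female is dominated by the ovary, gut, fat body and muscle, and small tissues such as antennae, eyes and epidermis contribute little. Indirect flight muscle, which fills the thorax, has its own actin, Act88F, and its own thick filament protein flightin (fln), so both report how much thoracic muscle RNA a sample holds. Cuticle proteins and chitin enzymes are made by the epidermis mostly around moults and in the first days after eclosion, and their transcripts fade as the cuticle matures. In a whole fly, fewer cells of a type and less RNA per cell cannot be told apart.

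The libraries held 31.6e6 to 35.4e6 counts in INT and 40.9e6 to 47.2e6 in NINT, against 50.2e6 to 58.3e6 in F0. Ribosomal RNA entries took 23.2%, 10.4% and 14.9% of the counts in INT 1, 2 and 3, and 5.94% to 7.36% in NINT. Female markers fit the label in all of them: the ovary markers summed to 2450 to 2700 counts per 1e6 (CPM, scaled by TMM) in INT and 2600 to 3110 CPM in NINT. Replicates of INT lay further apart than those of NINT, where a chi-square of their counts averaged 175 to 319 per gene for each INT pair and 53.4 to 84.4 for each NINT pair. Male accessory gland markers summed to 26.2 to 43.7 CPM in INT and to 122, 31.7 and 29.2 CPM in NINT 1, 2 and 3, so NINT 1 stood apart in this sum. Relative to the NINT mean, their median member lay 3.94, -1.76 and -1.72 log2 units away in NINT 1, 2 and 3. It lay 1.05, -2.02 and -1.93 units away in INT 1, 2 and 3, so library 1 was the highest in both groups by this measure.

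The genes called higher in INT females included genes of the cuticle, muscle, the respiratory chain, the eye and the antenna, and histone H3. Those called lower were few and included a small heat shock protein, predicted lipases and a chitin deacetylase. edgeR's quasi-likelihood test called 131 entries at a Benjamini-Hochberg adjusted p under 0.05 (0.995% of those tested), 117 higher in INT (0.888%) and 14 lower (0.106%). The 131 entries held 112 distinct sets of counts, because 23 were copies of the histone gene His3. Among the other 108, 94 were higher and 14 lower. In each of the 131 the 3 INT values lay on one side of the 3 NINT values, while 19.0% of all entries tested had INT wholly above NINT and 18.7% wholly below. Many called genes were rare transcripts: 42 of the 108 averaged under 1 CPM in NINT, and 32 reached 20 CPM in INT or NINT. At an unadjusted p under 0.05 there were 1384 higher (10.5% of those tested) and 594 lower (4.51%), and 51.2% of all entries had a log2 fold change above 0.

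INT 3 stood apart from the other INT females in muscle genes and in some cuticle genes. Act88F (3R, 15439969 to 15442177) had 19.2, 60.4 and 1710 CPM in INT 1, 2 and 3, against 3.95, 4.82 and 7.65 CPM in NINT 1, 2 and 3 and 4576, 4188 and 283 CPM in F0. INT 3 thus lay far above its group and in the range of the F0 libraries, and INT 1 and 2 still lay above every NINT library. The call for Act88F depended on the fit. With the 9 libraries it was not called, with INT 3 (log2 6.77, SE 1.81, adjusted p = 0.138) or without it (log2 2.84, adjusted p = 0.345). With the INT and NINT libraries alone the adjusted p was 0.0514 with INT 3 and 0.0255 without it (log2 2.86), and DESeq2 on the 9 libraries called it (adjusted p = 0.000409). INT 3 was also set against the mean of INT 1 and 2 among the 5285 entries with a mean of at least 20 CPM in INT. It was at least 2-fold above that mean in 90 entries and at least 10-fold above it in 16. The same count of at least 2-fold was 39 for INT 1 and 3 for INT 2. Rank correlations were taken across entries, which are not independent replicates. INT 3 was at 0.955 to 0.966 with the NINT libraries and 0.949 to 0.972 with the F0 libraries. INT 2 was at 0.974 to 0.98 with NINT and 0.914 to 0.98 with F0, and INT 1 at 0.969 to 0.97 with NINT and 0.899 to 0.97 with F0.

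Of the 10 entries highest in INT 3 relative to INT 1 and 2, each had an adjusted p above 0.05. CG8736 had 0.274, 1.93 and 270 CPM in INT, against 0.0315, 0.144 and 0.0462 CPM in NINT, a log2 difference of 10.25 that became 3.91 without INT 3. Flightin (fln) had 10.1, 16.7 and 627 CPM in INT, against 0.724, 0.758 and 2.53 CPM in NINT. The cuticle gene Acp1 had 2.98, 28.0 and 492 CPM in INT, against 0.0472, 0.108 and 0.293 CPM in NINT. These genes share a graded order in INT, with INT 1 lowest and INT 3 highest, and all 3 INT libraries above all 3 NINT libraries. With Act88F itself, the others of the 10 were Cpr100A, Cpr62Bc and Cpr92F, which are cuticle protein genes, CG16884 and CG16885 (now Vajk3 and Vajk2), and CR45161, an antisense RNA that overlaps fln, so that reads of the pair may be mixed.

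The 131 entries were selected by a test that includes INT 3 and that passes few genes with a wide spread within INT, so their values without INT 3 are given as a description. All 131 had the same sign without INT 3, and 87 were called again, while the other 44 had an adjusted p of 0.0565 to 0.123. The median log2 fold change of the 94 higher entries was 2.08 with INT 3 and 1.99 without it, and that of the 14 lower entries was -1.77 and -1.81. Within INT, INT 3 was the highest library for 46 of the 94, the middle one for 22 and the lowest for 26. The fit without INT 3 called 153 entries (1.14%), 145 higher (1.08%) and 8 lower (0.0595%), but these held only 88 distinct sets of counts. Of the 66 entries called only there, 49 were copies of the 5S ribosomal RNA, for example 5SrRNA:CR33393 with 274, 50 and 15.6 CPM in INT, against 18, 10.7 and 14.1 CPM in NINT. In that gene INT 3 lay within the NINT range and INT 1 far above it. Its adjusted p without INT 3, 0.0475, is a tied value shared with the His3 copies and with many called genes named below. Copies enter the adjustment as separate entries, and the fit without INT 3 was not repeated with identical entries counted once. Whether a gene near the threshold kept or lost its call without INT 3 may therefore depend on these copies.

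**Figure D1:**
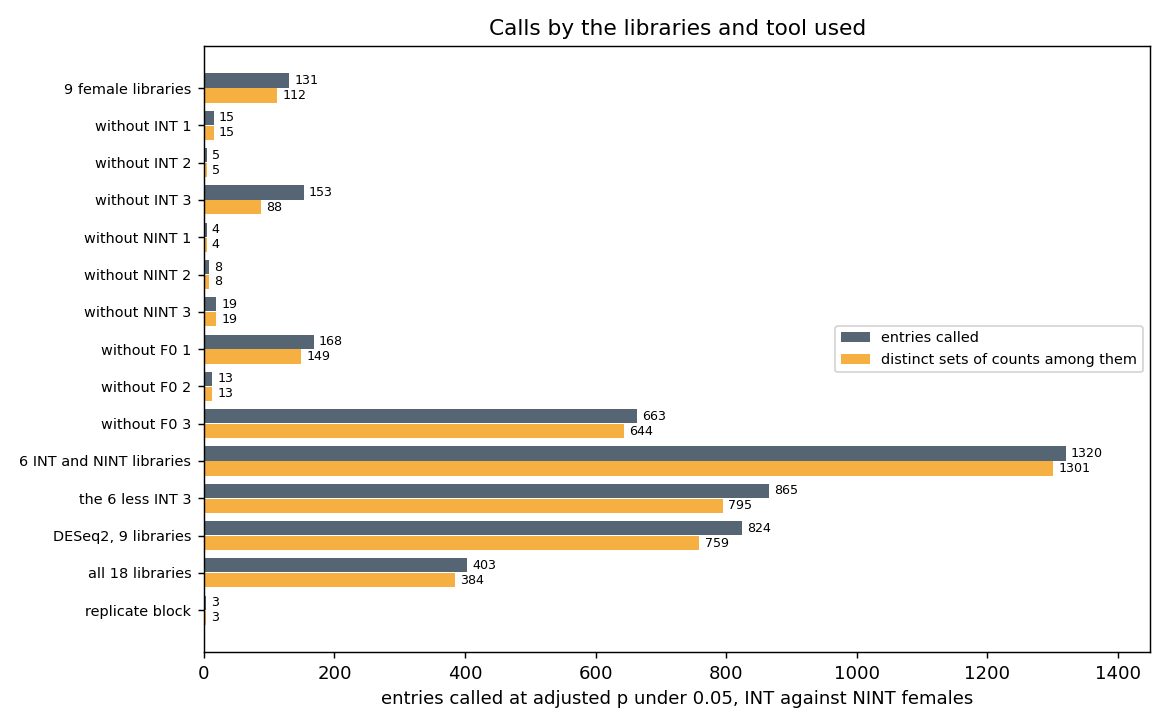
Number of entries called at an adjusted p under 0.05 for INT against NINT females (x axis) in each fit (y axis), with dark bars for all entries and light bars for distinct sets of counts. The count was 131 with all 9 female libraries, 153 without INT 3, 4 to 19 without any other single INT or NINT library, and 1320 with the 6 INT and NINT libraries alone.

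The number of calls moved more without any other single female library, F0 included, than without INT 3. It was 15 without INT 1, 5 without INT 2, 4 without NINT 1, 8 without NINT 2 and 19 without NINT 3. It was also 168 without F0 1, 13 without F0 2 and 663 without F0 3, since the F0 libraries share in the estimate of the spread. With the 6 INT and NINT libraries alone 1320 entries were called (10.5%), 822 higher (6.53%) and 498 lower (3.96%). With these less INT 3 there were 865 (6.65%), 668 higher (5.14%) and 197 lower (1.52%), of which 657 were common to both (49.8% of the 1320 and 76.0% of the 865). Of the 131 entries, 130 were among the 1320 and 129 among the 865. A block for the replicate number left 3 (0.0228%).

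The smallest adjusted p-values belonged to genes whose 3 INT libraries lay close together. CG13026 (3L, 16724678 to 16726169), a gene without a known role, had 4.66, 7.77 and 7.81 CPM in INT, against 0.0944, 0.0722 and 0.108 CPM in NINT and 5.90, 9.07 and 4.31 CPM in F0. Its log2 fold change was 6.15 (SE 0.42, adjusted p = 0.00181), the smallest p of the comparison, and 6.02 without INT 3. INT and F0 overlapped, and NINT stood apart from both. CG14022 (2L, 5327975 to 5328844) had 11.9, 14.4 and 14.5 CPM in INT, against 2.30, 2.91 and 2.66 CPM in NINT (log2 2.37, SE 0.19, adjusted p = 0.00426).

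ImpE1 (3L, 8372405 to 8391171), known as an ecdysone-inducible gene, had 3.11, 2.77 and 2.11 CPM in INT, against 0.110, 0.180 and 0.231 CPM in NINT. ImpE1 rose (log2 3.91, SE 0.37, adjusted p = 0.00746), and its log2 fold change was 4.04 without INT 3, which was its lowest INT library. ImpL1, another gene named for induction by ecdysone, also rose (log2 6.51, adjusted p = 0.0412), as did Jhe, the juvenile hormone esterase gene (log2 3.03, adjusted p = 0.0263), and its neighbour Jhedup (log2 1.37, adjusted p = 0.0298). These 3 were singled out after their values were seen. Ecdysone and juvenile hormone time moulting and also act in the adult ovary and fat body. neo, which encodes a zona pellucida domain protein of the apical extracellular matrix, had 2.74, 1.95 and 2.20 CPM in INT, against 0.173, 0.235 and 0.0770 CPM in NINT. Osi9, a member of the Osiris gene family, had 1.64, 1.17 and 0.754 CPM in INT, against 0.0315, 0.108 and 0.0308 CPM in NINT. Both were called (adjusted p = 0.0131 for neo and 0.0251 for Osi9), and in neither did the groups overlap.

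**Figure D2:**
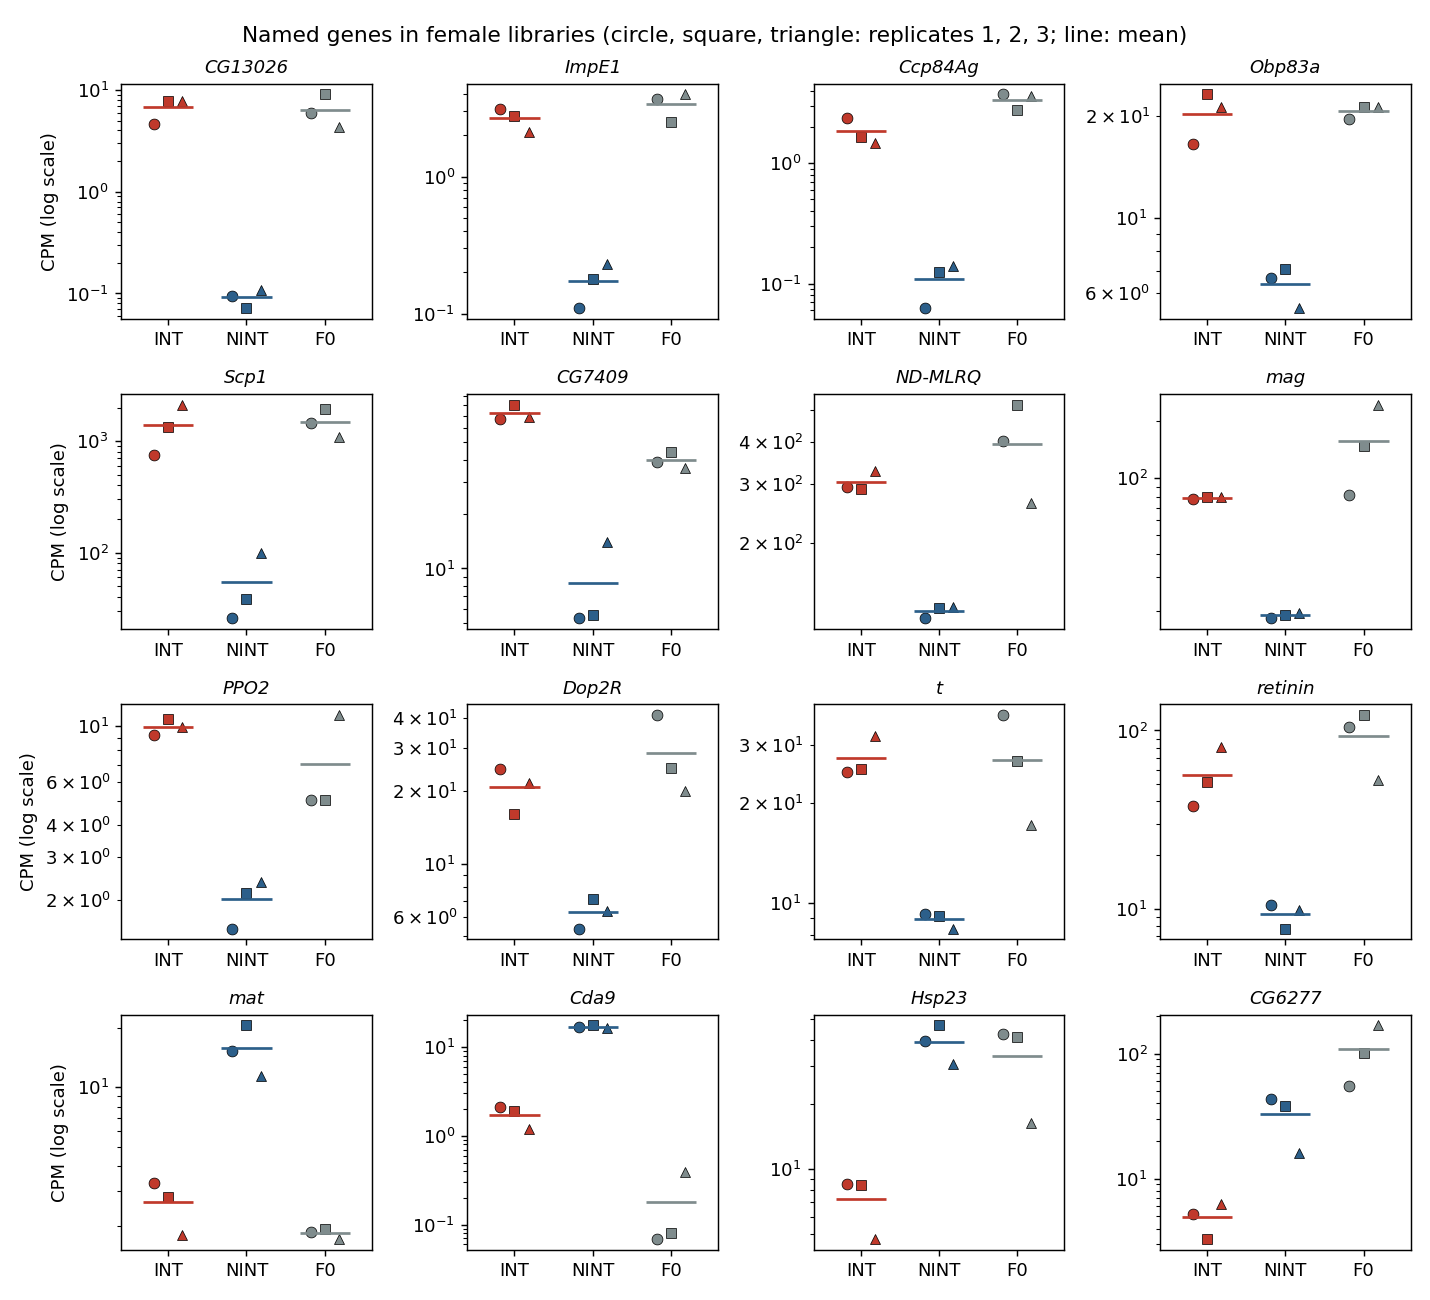
CPM on a log scale (y axis) of 16 named genes in the 3 libraries of INT, NINT and F0 females (x axis), with a line at the mean of each group. The first 12 genes were higher in INT with all 3 INT values above all 3 NINT values, and mat (listed as CG13905), Cda9, Hsp23 and CG6277 were lower in INT.

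Cuticle protein genes were mostly higher in INT. Of 123 listed, 81 passed the filter on low counts, which a gene can pass through its higher group alone, so the counts here describe these 81. Of them, 74 had a log2 fold change above 0, and the median was 2.17, against 0.01 over all entries tested. The test called 3 members, each of them higher. Without INT 3 the median was 1.91 and 5 members were called higher. Relative to the NINT mean, the median member lay 1.87, 1.66 and 1.12 log2 units higher in INT 1, 2 and 3, so INT 3 was the lowest INT library by this measure, although the summed level was 279, 350 and 1500 CPM in INT, against 83.3, 94.6 and 102 CPM in NINT.

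The called cuticle genes were even across INT. Ccp84Ag (3R, 6686728 to 6688039), from a cluster of cuticle genes at 84A, had 2.38, 1.65 and 1.48 CPM in INT, against 0.0629, 0.126 and 0.139 CPM in NINT (log2 4.04, SE 0.38, adjusted p = 0.00746). Cpr65Au (3L, 6131242 to 6132109) had 36.9, 40.9 and 42.7 CPM in INT, against 8.23, 9.57 and 12.9 CPM in NINT (log2 1.97, SE 0.22, adjusted p = 0.0131). Cpr72Ec, whose product is known from the corneal lens, had 9.17, 11 and 8.2 CPM in INT, against 2.66, 3.01 and 3.93 CPM in NINT (log2 1.56, SE 0.23, adjusted p = 0.0257). The groups did not overlap in any of the 3 genes, and each was also called without INT 3. Cpr72Ec was also above F0, at 3.45, 2.57 and 3.15 CPM.

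The highest INT library was INT 1 for 40 of the 81 cuticle genes, INT 2 for 6 and INT 3 for 35. All INT values exceeded all NINT values in 20, 3 and 25 of these, while 19.0% of all entries tested had INT wholly above NINT. TwdlV and the Lcp65Ag genes were highest in INT 1: Lcp65Ag2 had 8.22, 5.35 and 1.78 CPM in INT, against 0.173, 0.0722 and 0.647 CPM in NINT, with an adjusted p of 0.0695 that became 0.0479 without INT 3. Lcp65Ag1, Lcp65Ag2 and Lcp65Ag3 are close copies, so reads may have been split between them. Cpr49Ae, Cpr47Ea, Acp65Aa and Cpr92F were highest in INT 3: Cpr49Ae had 20.1, 48.1 and 224 CPM in INT, against 1.15, 1.73 and 3.40 CPM in NINT (log2 5.53, adjusted p = 0.0803). In the genes named here the 3 INT values exceeded the NINT values.

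Markers of epidermis and trachea moved the same way. All 10 had a log2 fold change above 0, with a median of 1.5 that became 1.23 without INT 3, when 9 of 10 were above 0, and 0 were called with all 9 libraries (6 at an unadjusted p under 0.05, and 5 in the 6-library fit). The marker ect had 6.58, 5.13 and 3.47 CPM in INT, against 1.05, 2.20 and 1.06 CPM in NINT (adjusted p = 0.0607, and 0.0479 without INT 3). kkv, the chitin synthase gene, had 2.01, 1.85 and 18.9 CPM in INT, against 0.236, 0.433 and 0.262 CPM in NINT (adjusted p = 0.160). Among 40 chitin, tanning and pigment genes the median was 1.13, and 0.62 without INT 3. The test called t, the hydrolase gene tan of pigment and of histamine recycling in the eye, and Cda9, which was lower. t (X, 9217655 to 9223257) had 24.9, 25.5 and 31.9 CPM in INT, against 9.28, 9.13 and 8.36 CPM in NINT (log2 1.62, SE 0.26, adjusted p = 0.0298). Without INT 3, t lost the call (adjusted p = 0.0571).

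**Figure D3:**
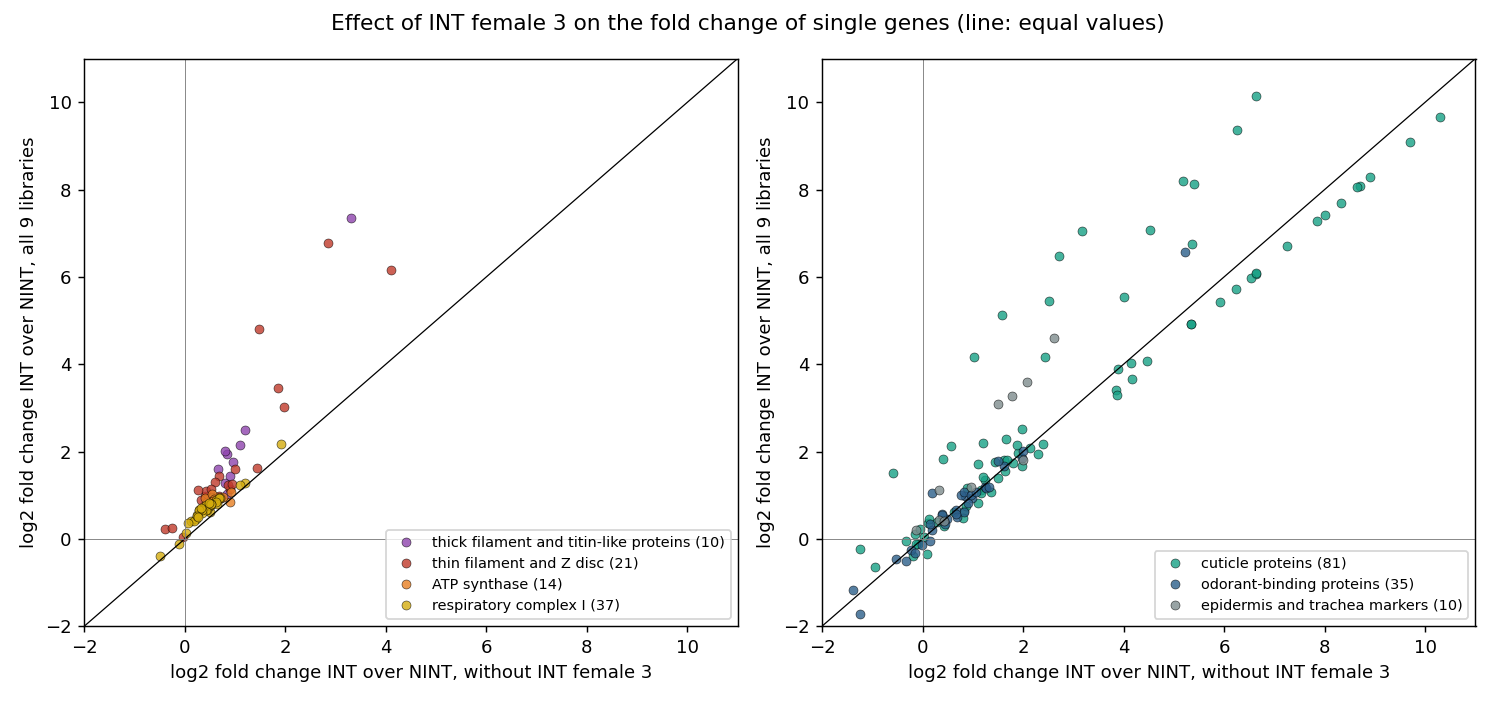
Log2 fold change of INT over NINT for each list member with all 9 libraries (y axis) against that without INT 3 (x axis), where the line marks equal values. Most muscle and mitochondrial genes (left) lie above the line, and cuticle genes (right) split into some far above it and a set just below it.

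Of the list medians described here, those of muscle moved most when INT 3 was left out. The 5 flight muscle markers had a median log2 fold change of 6.16, and 2.84 without INT 3, with 0 called in either fit (4 of 5 at an unadjusted p under 0.05, 2 called in the 6-library fit and 4 in the 5-library fit). Their median member lay 1.86, 3.51 and 7.52 log2 units above the NINT mean in INT 1, 2 and 3. The 10 thick filament and titin-like genes had a median of 1.85, and 0.87 without INT 3. The 21 thin filament and Z disc genes had 1.24, and 0.68 without INT 3, where 18 rather than 21 were above 0. Every library of INT thus lay above the NINT mean in these lists, with INT 3 farthest.

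TpnC4, the troponin C of flight muscle, had 14.9, 28.7 and 228 CPM in INT, against 0.739, 1.55 and 1.49 CPM in NINT. Its log2 fold change was 6.16 (adjusted p = 0.0671), and 4.09 without INT 3 (adjusted p = 0.0723). Mhc, the muscle myosin heavy chain gene, had 1248, 1769 and 6627 CPM in INT, against 857, 963 and 689 CPM in NINT (adjusted p = 0.330), and its difference of 1.94 became 0.83 without INT 3. Act57B, an actin of larval and body wall muscle, did not separate the groups, with 444, 573 and 1319 CPM in INT, against 716, 825 and 444 CPM in NINT. The difference in Act57B was 0.24 with INT 3 and -0.40 without it. TpnC73F and wupA showed the same overlap of INT 1 with NINT.

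The called muscle genes were Scp1, Scp2 and Mlp60A. Scp1 (2R, 2932595 to 2968052), which encodes a sarcoplasmic calcium-binding protein, had 745, 1350 and 2125 CPM in INT, against 25.7, 38.4 and 99.5 CPM in NINT and 1455, 1935 and 1081 CPM in F0. It was 25.8-fold higher (log2 4.69, SE 0.61, adjusted p = 0.0245), and 4.24 on the log2 scale without INT 3. Scp2, its paralog, had 17.1, 24.3 and 31.6 CPM in INT, against 7.39, 9.84 and 8.47 CPM in NINT (log2 1.51, SE 0.26, adjusted p = 0.0338). Mlp60A, a muscle LIM protein gene, had 296, 337 and 438 CPM in INT, against 128, 90.7 and 128 CPM in NINT (log2 1.63, SE 0.29, adjusted p = 0.0349). Without INT 3, Scp1 kept its call (adjusted p = 0.0475), and Scp2 and Mlp60A had 0.0753 and 0.0867. The calcium pump gene Ca-P60A (SERCA) had 1048, 1313 and 2512 CPM in INT, against 322, 422 and 399 CPM in NINT, and missed the threshold (adjusted p = 0.0898).

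Nuclear genes of the respiratory chain lay higher in INT by a smaller and more even step. Of 37 complex I genes tested, 35 were above 0, with a median log2 of 0.68, and 0.42 without INT 3. The 34 genes of complexes II to IV had a median of 0.81 (0.60 without INT 3) and the 14 ATP synthase genes one of 0.92 (0.56 without INT 3). The test called 3, 1 and 0 members of these lists, each higher, against 17, 21 and 11 at an unadjusted p under 0.05 and 14, 18 and 7 called higher in the 6-library fit. The median complex I gene lay 0.39, 0.46 and 1.17 log2 units above the NINT mean in INT 1, 2 and 3, so INT 3 stood highest and the other INT libraries stood between it and NINT.

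The called subunits lay above NINT in every INT library. CG32230, now ND-MLRQ (3L, 23339326 to 23345936), had 293, 290 and 328 CPM in INT, against 119, 128 and 129 CPM in NINT (log2 1.28, SE 0.23, adjusted p = 0.0349). CG40002, now ND-AGGG, had 142, 140 and 178 CPM in INT, against 70.2, 58.4 and 67.1 CPM in NINT. Without INT 3 their log2 fold changes were 1.20 and 1.09, against 1.28 and 1.23 with it, and neither was called (adjusted p = 0.0896 and 0.111). CG15434, now ND-B8, had 3.47, 3.55 and 5.31 CPM in INT, against 0.944, 0.722 and 1.08 CPM in NINT. CG34172, now COX7AL2, a cytochrome oxidase subunit gene, had 71.5, 74.6 and 197 CPM in INT, against 8.06, 5.22 and 7.39 CPM in NINT. Without INT 3, ND-B8 and COX7AL2 kept the call (adjusted p = 0.0475 for each), while their log2 fold changes were 1.92 and 3.39, against 2.16 and 4.05 with it, so the larger shift in size was in the genes that kept the call. Mitochondrial ribosomal protein genes, the translation machinery of the organelle, had a median of 0.10 over 73 members with 0 called (3 at an unadjusted p under 0.05).

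Genes of glycolysis and the tricarboxylic acid cycle showed the same order with no call (5 higher and 2 lower at an unadjusted p under 0.05). The median over 33 genes was 0.55, and 0.25 without INT 3. Gapdh1, a glycolytic enzyme gene, had 316, 350 and 625 CPM in INT, against 177, 189 and 183 CPM in NINT (adjusted p = 0.157). Pepck, now Pepck1, which makes phosphoenolpyruvate for gluconeogenesis, ran the other way, with 80.2, 97.4 and 115 CPM in INT, against 250, 330 and 293 CPM in NINT. It was not called with the 9 libraries (log2 -1.58, adjusted p = 0.106), and it was in the 6-library fit (adjusted p = 0.00581).

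Odorant-binding proteins, which carry odorants in the fluid of sensory hairs, showed little dependence on INT 3. Of 53 listed genes 35 passed the filter, and 27 of these were above 0, with a median log2 of 0.62, and 0.68 without INT 3, and 4 were called, each higher. Obp83a (3R, 5972155 to 5975229), an antennal gene, had 16.5, 23.1 and 21.2 CPM in INT, against 6.65, 7.07 and 5.44 CPM in NINT (log2 1.66, SE 0.17, adjusted p = 0.0108). Obp19a had 7.28, 8.75 and 6.84 CPM in INT, against 3.23, 3.79 and 3 CPM in NINT. Both kept the call without INT 3 (adjusted p = 0.0475 for Obp83a and 0.0486 for Obp19a). The called Obp57c and Obp28a lost it, at 0.0763 and 0.0824. INT values of Obp83a matched those of F0, at 19.5, 21.2 and 21.2 CPM, and NINT was the group apart.

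The eye genes called higher belong to the lens, the visual pigment cycle and light signalling. The list of 36 phototransduction and lens genes had a median of 0.39 (0.25 without INT 3) and 4 calls, each higher. The 4 include Cpr72Ec, which also counts among the called cuticle genes above. retinin (3L, 16331933 to 16332789), a protein of the corneal lens, had 37.6, 51.3 and 80.4 CPM in INT, against 10.5, 7.74 and 9.79 CPM in NINT (log2 2.59, SE 0.36, adjusted p = 0.0251). Pdh, the photoreceptor dehydrogenase of the visual pigment cycle, had 40.4, 50.8 and 56.1 CPM in INT, against 16.6, 19.4 and 15.9 CPM in NINT (log2 1.51, SE 0.20, adjusted p = 0.0245). Gbeta76C, the beta subunit of the photoreceptor G protein, had 29.9, 37.0 and 45.8 CPM in INT, against 14.5, 19.3 and 15.3 CPM in NINT. retinin and Pdh kept the call without INT 3 (adjusted p = 0.0475 for each), and Gbeta76C had 0.113. The 10 eye markers summed to 1700, 1810 and 2080 CPM in INT and to 2130, 2470 and 1790 CPM in NINT, so the summed level overlapped between the groups. Their median member did not: it lay 0.41, 0.61 and 0.72 log2 units from the NINT mean in INT 1, 2 and 3 and -0.07, 0.22 and -0.15 in NINT 1, 2 and 3, with 7 of 10 above 0.

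Nerve cell genes lay above 0 with few calls. Neuron markers were above 0 in 10 of 10 genes, with a median of 0.82 (0.62 without INT 3, where 9 were above 0), and 0 were called (3 at an unadjusted p under 0.05, 7 in the 6-library fit). Their summed level was 402, 384 and 568 CPM in INT and 271, 335 and 244 CPM in NINT. The test called Dop2R, a dopamine receptor gene, among 39 amine and acetylcholine genes, and, among 32 synaptic genes, comt, which encodes the NSF protein that acts when vesicles fuse. Dop2R (X, 20004680 to 20062706) had 24.7, 16 and 21.6 CPM in INT, against 5.38, 7.16 and 6.38 CPM in NINT (log2 1.72, SE 0.29, adjusted p = 0.0298). comt had 19.9, 21.1 and 23.4 CPM in INT, against 10.5, 11.6 and 12.5 CPM in NINT (log2 0.90, SE 0.13, adjusted p = 0.0257). Neither was highest in INT 3 by a wide margin, and without INT 3 comt kept the call (adjusted p = 0.0486) and Dop2R had 0.0624. Of 36 learning and memory genes 0 were called, with 3 in each direction at an unadjusted p under 0.05 and a median of 0.14.

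With the 9 libraries, histone H3 was the one class of replication-dependent histone with called entries. All 23 His3 entries were called, with a log2 fold change of 2.50 to 2.53 (adjusted p = 0.0298 for each), but 20 of them share a single set of counts, so they hold 4 measurements at most. The median His3 entry had 109, 64.9 and 57.5 CPM in INT, against 15.9, 10.8 and 13.3 CPM in NINT and 6.97, 9.65 and 21.7 CPM in F0. INT 3 was the lowest INT library, and without it the difference was 2.68. The entry with the highest level, His3:CG33824, whose listed interval overlaps many other histone entries, had 864, 532 and 451 CPM in INT, against 129, 86.8 and 109 CPM in NINT.

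The other classes had 0 calls with the 9 libraries, with or without INT 3, and with the 6, while the 6 less INT 3 called 11 of 23 His2B entries. The median log2 fold change was 0.47 for His1, 0.35 for His2A, 0.77 for His2B and 0.27 for His4, with adjusted p from 0.513 upward. His4 entries, which pair with H3 in the nucleosome in equal number, had a median of 58.7, 42.2 and 36.2 CPM in INT, against 42.9, 36.5 and 35.7 CPM in NINT. Histone messages of this kind carry no poly(A) tail and lie in a tandem repeat, and the sources used here do not give how reads that fit several copies were counted. Genes of DNA replication and the cell cycle, in whose S phase these histones are made, were below 0 in all but 1 of 44 (median -0.31), with 0 called and 0 at an unadjusted p under 0.05, and 11 called lower in the 6-library fit, against 0 when INT 3 was left out of those 6.

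**Figure D4:**
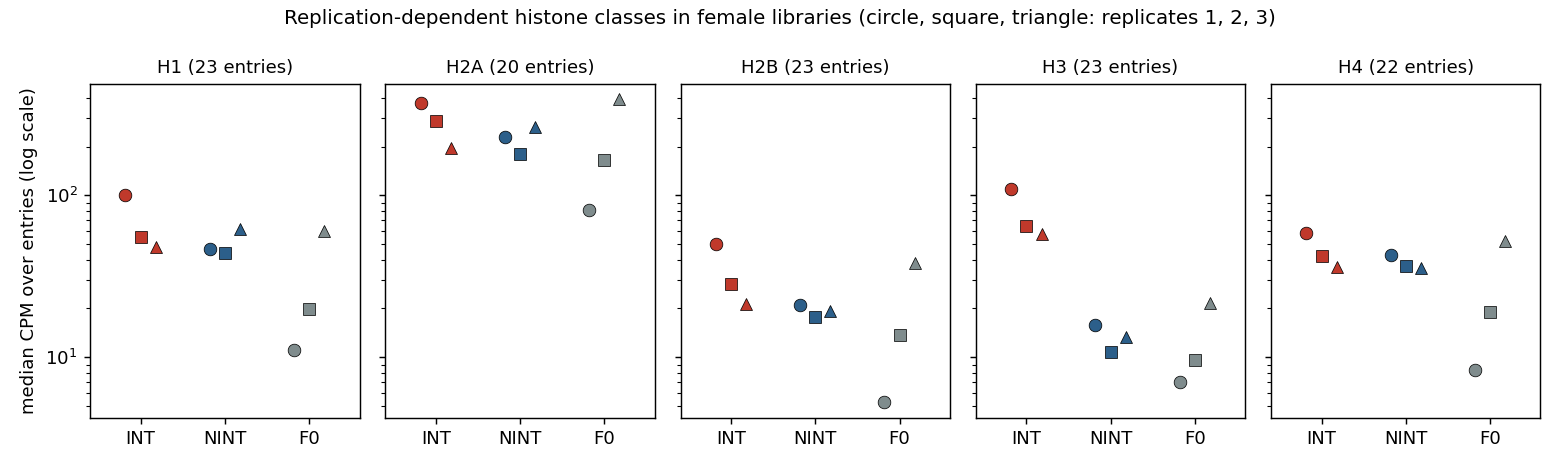
Median CPM over the entries of each replication-dependent histone class (y axis, log scale) in the female libraries of INT, NINT and F0 (x axis). In H3 the 3 INT libraries, at 57.5 to 109 CPM, lie above the 3 NINT libraries, at 10.8 to 15.9 CPM, and in H1, H2A and H4 the groups overlap.

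Small heat shock proteins, chaperones that hold unfolded proteins, moved in both directions. CG7409 (3L, 7754409 to 7755168), a member of this family, had 67.3, 80.8 and 69.4 CPM in INT, against 5.30, 5.54 and 14 CPM in NINT and 39.0, 44.1 and 36 CPM in F0 (log2 3.13, SE 0.36, adjusted p = 0.0159). CG4461 (3L, 9375430 to 9376293) had 30.4, 36.7 and 50.5 CPM in INT, against 14.6, 16.9 and 13.6 CPM in NINT (log2 1.38, SE 0.21, adjusted p = 0.0284). Hsp23 (3L, 9381882 to 9382730), which lies 5589 bases from CG4461, was lower, with 8.53, 8.40 and 4.73 CPM in INT, against 39.3, 46.5 and 30.7 CPM in NINT. Hsp23 fell (log2 -2.42, SE 0.39, adjusted p = 0.0298). Without INT 3, CG7409 and CG4461 kept the call at the tied adjusted p of 0.0475, and Hsp23 had 0.0571.

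Several heat-inducible genes had INT values below NINT without a call. Hsp22 had 12.7, 11 and 8.14 CPM in INT, against 43.6, 56.5 and 29.9 CPM in NINT, with an adjusted p of 0.05004. Hsp68 had 13.5, 18.3 and 5.88 CPM in INT, against 56.1, 82.9 and 45.1 CPM in NINT (adjusted p = 0.109). Hsp70Aa and Hsp70Ab hold identical counts, as near-identical copies, with 535, 493 and 144 CPM in INT, against 1048, 1186 and 581 CPM in NINT (adjusted p = 0.353). INT 3 was the lowest library for each of these genes. The list of 35 large heat shock proteins and chaperones had 0 calls (1 higher and 6 lower at an unadjusted p under 0.05) and a median of -0.22, and -0.12 without INT 3.

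The 14 genes called lower in INT were mostly even within both groups. CG13905, now mat (3L, 902898 to 903810), had 3.29, 2.79 and 1.81 CPM in INT, against 15.3, 20.5 and 11.4 CPM in NINT and 1.86, 1.94 and 1.72 CPM in F0 (log2 -2.58, SE 0.29, adjusted p = 0.0131). Cda9 (2R, 17128480 to 17130334), a chitin deacetylase gene, had 2.10, 1.90 and 1.18 CPM in INT, against 16.9, 17.5 and 16.2 CPM in NINT and 0.0690, 0.0796 and 0.388 CPM in F0 (log2 -3.29, SE 0.45, adjusted p = 0.0251). In both genes NINT stood above INT and F0. CG15043 (X, 18493193 to 18494168), the most abundant of the 14 in NINT, had 33.3, 37.5 and 40.6 CPM in INT, against 112, 84.8 and 79.3 CPM in NINT (log2 -1.31, SE 0.155, adjusted p = 0.0164). These 3 kept the call without INT 3 (adjusted p = 0.0475 for each), as did CG5966, CG5770 and CG34423.

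Lipid enzymes stood on both sides. CG5966, a predicted lipase, had 14.3, 13.7 and 15.8 CPM in INT, against 32.3, 27.5 and 32.2 CPM in NINT (log2 -1.07, SE 0.14, adjusted p = 0.0245). CG6277, also a predicted lipase, had 5.21, 3.30 and 6.27 CPM in INT, against 43.4, 38.4 and 16.2 CPM in NINT and 55.5, 101 and 168 CPM in F0. No groups overlapped, with INT lowest and F0 highest (INT over NINT log2 -2.73, SE 0.49, adjusted p = 0.0394, and 0.0729 without INT 3). GIIIspla2, a secreted phospholipase gene, had 12.8, 12.6 and 12.8 CPM in INT, against 20.8, 19.5 and 23.6 CPM in NINT (adjusted p = 0.0424). mag, or magro, a gut lipase that digests triglycerides and cholesterol esters, was higher, with 77.4, 79.8 and 79.2 CPM in INT, against 18.3, 19.0 and 19.5 CPM in NINT (log2 2.06, SE 0.33, adjusted p = 0.0298). INT values spanned a narrow range well above NINT, and mag kept the call without INT 3 (adjusted p = 0.0496). Npc2h, a secreted lipid-binding protein gene of the Niemann-Pick type, had 38.6, 40.1 and 32.1 CPM in INT, against 16.3, 16.6 and 16.2 CPM in NINT (log2 1.17, SE 0.21, adjusted p = 0.0398). Without INT 3, Npc2h and GIIIspla2 lost the call (adjusted p = 0.0582 and 0.109).

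The immune lists held few calls, each higher in INT: 1 of 37 antimicrobial peptide and bomanin genes, 2 of 43 recognition and melanization genes and 1 of 10 hemocyte markers, where PPO2 counts in both of the last lists. PPO2 (2R, 9042261 to 9044709), a prophenoloxidase of crystal cells, the blood cells of melanization, had 9.20, 10.7 and 9.92 CPM in INT, against 1.54, 2.15 and 2.37 CPM in NINT (log2 2.30, SE 0.34, adjusted p = 0.0263). PPO1, the other crystal cell prophenoloxidase, had 8.01, 9.52 and 7.60 CPM in INT, against 1.10, 2.49 and 2.59 CPM in NINT, just outside the threshold (adjusted p = 0.0551). The 10 hemocyte markers summed to 203, 198 and 216 CPM in INT and to 166, 219 and 192 CPM in NINT, which overlap. Their median log2 fold change was 0.32, with 6 of 10 above 0 and 3 higher at an unadjusted p under 0.05. PGRP-LF, a peptidoglycan recognition protein that restrains the Imd pathway, had 6, 7.11 and 5.82 CPM in INT, against 2.89, 2.89 and 2.29 CPM in NINT (adjusted p = 0.0474). Drsl4, a drosomycin-like gene, had 19.6, 19.3 and 16.4 CPM in INT, against 4.74, 4.02 and 7.59 CPM in NINT (log2 1.76, SE 0.26, adjusted p = 0.0257). Without INT 3, PPO2 and Drsl4 kept the call (adjusted p = 0.0475 for each) and PGRP-LF had 0.0849. The antimicrobial peptide and bomanin list, by contrast, had a median of -1.05 over 37 genes and no member called lower (5 at an unadjusted p under 0.05). Its median member lay -1.04, -0.36 and -0.82 log2 units from the NINT mean in INT 1, 2 and 3 and 1.11, 0.02 and -1.18 in NINT 1, 2 and 3, so NINT alone spanned the INT values.

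Ovary lists, fat body markers and ageing-related lists had few calls and medians between -0.20 and 0.02. Yolk, vitelline membrane and chorion genes had a median of -0.20 over 22 genes, germline and maternal genes -0.09 over 42, fat body markers -0.07 over 10, insulin and TOR signalling genes -0.08 over 24, and antioxidant and longevity genes 0.02 over 28. Calls numbered 0 in the first 4 of these lists and 1 in the last, which was higher. At an unadjusted p under 0.05, 5 yolk, vitelline membrane and chorion genes were lower and 0 higher, and 1 germline gene was lower. The same limit was passed by 0 fat body markers, by 3 insulin and TOR genes higher and 1 lower, and by 2 antioxidant and longevity genes higher and 1 lower. Yp1, a yolk protein gene, had 5459, 5466 and 5344 CPM in INT, against 8812, 7282 and 7582 CPM in NINT, a difference that was not called (log2 -0.54, adjusted p = 0.317). The proteasome list had a median of -0.06 over 32 genes with 0 called and 0 at an unadjusted p under 0.05. Larval serum and fat body secreted proteins lay higher, with a median of 0.43 over 22 genes, and 0.12 without INT 3. With the 9 libraries 0 of them were called, with 5 higher and 3 lower at an unadjusted p under 0.05. Called higher were 6 in the 6-library fit and 1 in the fit without INT 3.

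**Figure D5:**
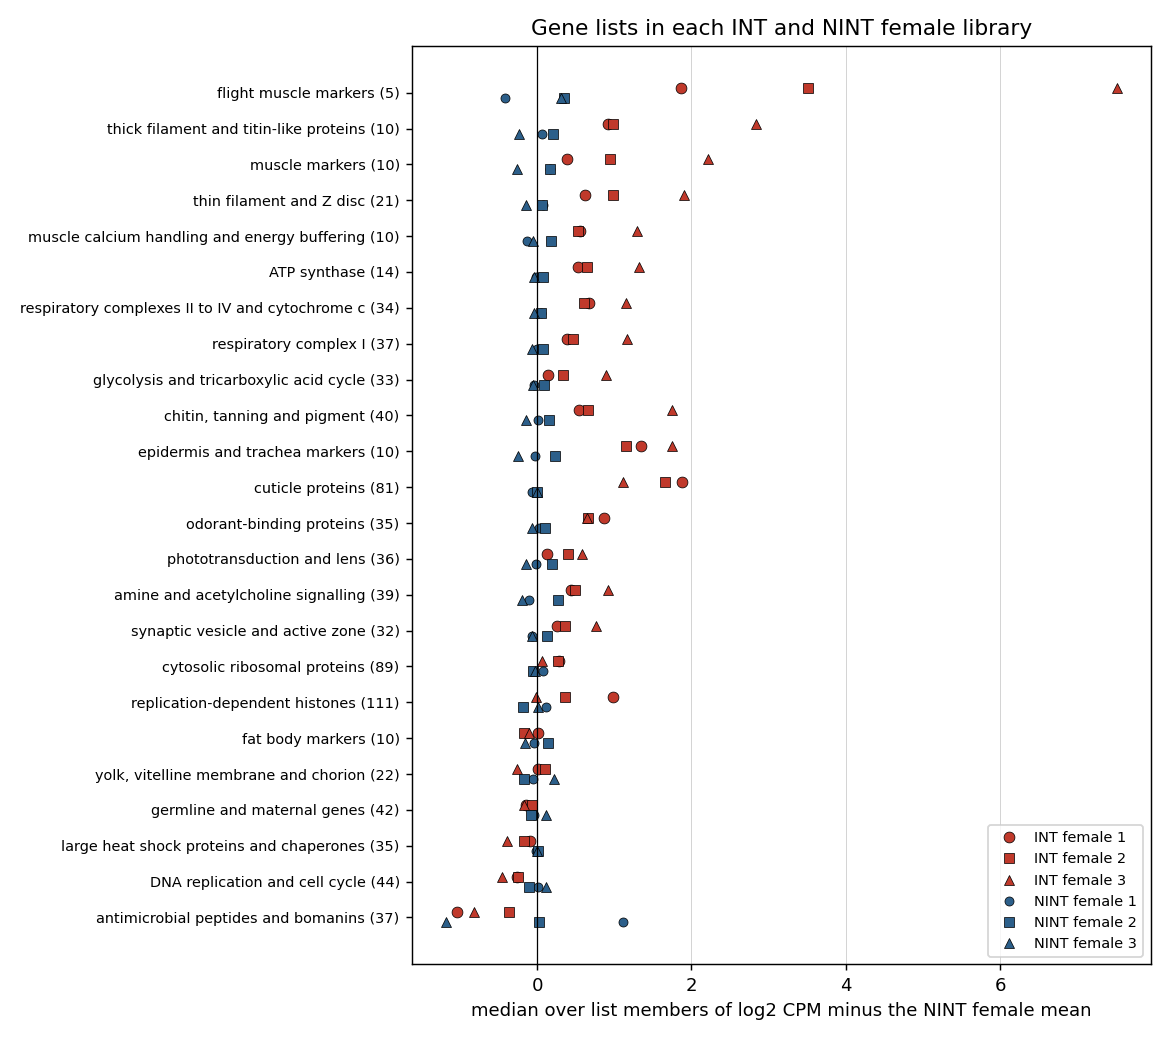
Median over the members of each list of log2 CPM minus the NINT mean (x axis), for each INT and NINT female library (points), with the number of members in brackets. Muscle and mitochondrial lists spread to the right in INT 3, INT 3 is the lowest INT library in the cuticle list, and antimicrobial peptides spread within NINT from -1.18 to 1.11.

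Several called genes lie beside one another in the genome (dm6 coordinates). On 3L, CG13041 (16318954 to 16319526) overlaps CR45663 and CR45664, an antisense and a long noncoding RNA, and CG13063 and retinin lie within 20 kb, all 5 of them higher in INT. CG13041 had 1.68, 1.24 and 0.694 CPM in INT and 0 counts in the 3 NINT libraries, and was at least 73.9-fold higher against a floor of 3 counts over the NINT group (adjusted p = 0.0131). The counts of the 3 overlapping entries cannot be told apart without the strand setting of the counting. CG42502 (2L, 18808694 to 18810986) likewise spans CG10570, and both rose (log2 1.53 and 1.49, adjusted p = 0.0257 for each). By chromosome arm, 32 of the 112 distinct called sets of counts lay on 3L (28.6%, where 19.3% of the distinct sets tested lie) and 9 on X (8.04%, against 16.5%), and no test was made of these shares.

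A pair of neighbouring entries on X was high in a single INT female library. CR45530 (X, 6279680 to 6280012), a long noncoding RNA, had 1.19, 491 and 0.241 CPM in INT, against 1.12, 0.433 and 1.09 CPM in NINT. CG11700 (X, 6282037 to 6283575) had 37.6, 254 and 30.9 CPM in INT, against 24.9, 21.2 and 27.4 CPM in NINT. Neither was called (adjusted p = 0.179 and 0.207). In males, CR45530 had 0.959, 597 and 13.8 CPM in INT, against 0.363, 0.218 and 0.306 CPM in NINT. CG11700 had 37.7, 317 and 43 CPM in INT males, against 23.2, 24.8 and 29.9 CPM in NINT males. Library 2 was again the highest, and the other INT males also lay above the NINT males.

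The differences between INT and NINT females were set beside those in males in a fit of all 18 libraries. The test of the female minus the male difference called 41 entries (0.268% of 15304), 33 positive (0.216%) and 8 negative (0.0523%), and 23 of the 108 called entries other than His3 were among them. Of these 108, 77 (71.3%) had the same sign in males, against 60.8% of all entries tested. The fit called 9 entries between INT and NINT males, of which 0 were among those called in females. Act88F showed no such step in males, with 11, 10.1 and 8.44 CPM in INT males, against 8.74, 11.3 and 11.1 CPM in NINT males, and the difference of differences was not called (adjusted p = 0.245). CG13026 was near 0 in males, with 0.513, 0.274 and 0.0449 CPM in INT and 0.363, 0.0273 and 0.372 CPM in NINT, and its female minus male difference of 6.06 was called (adjusted p = 0.0286).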

How the data were processed

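RNA of whole flies was extracted with Trizol and made into libraries with a SMARTer Stranded RNA-Seq kit, per the labels' protocols. The values are raw read counts per gene as deposited by the authors. Per the submitters' processing notes, the build was dm6 and DESeq2 was used. The aligner and counter were not given in the sources used here, nor was the handling of strand. The counts of the 9 female libraries were fitted in edgeR 4.0.16 (quasi-likelihood test, TMM scaling, filterByExpr with a minimum count of 10 and total of 15, R 4.3.3), with INT minus NINT as the contrast and Benjamini-Hochberg adjustment over all 13169 entries tested. CPM values are TMM-scaled. The difference between sexes was an interaction in a fit of all 18 libraries. DESeq2 1.42.0, other filters and scalings, a replicate block and leaving out each library were tried as alternatives. The steps were tested on simulated data.

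Named genes were all called lower genes, the 20 higher genes of smallest p, the 12 of highest level, called members of the 53 lists, 8 in each direction from the fit without INT 3, the entries farthest above (10) or below (5) in INT 3, and 6 in each direction of the interaction. Other genes named are members of those lists, or are said to be chosen after their values were seen. The genes and lists were chosen with earlier results of these data known. Floors (3 counts over a group) and intervals (95%) cover counting error only. Near-identical copies and overlapping genes are uncertain, because how shared reads were counted is unknown.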

Additional observations from a re-analysis of the deposited data

Results flagged for a closer look

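The INT minus NINT difference in females differed from that in males for 41 entries, by the interaction in edgeR's fit of all 18 libraries. The 12 genes described here are the 6 of smallest p in each direction. The values below are CPM scaled over the 18 libraries, so they differ slightly from those of the female fit.

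ImpE1 had 3.61, 3.21 and 2.44 CPM in INT females, against 0.129, 0.209 and 0.269 CPM in NINT females, and 0.379, 0.299 and 0.359 CPM in INT males, against 0.406, 0.546 and 0.985 CPM in NINT males. The log2 difference between the sexes was 4.80 (SE 0.52, adjusted p = 0.00209). fit, a gene of the female fat body, had 40.1, 35.6 and 20.4 CPM in INT females, against 8.34, 12.8 and 14.1 CPM in NINT females, and 0.558, 0.549 and 0.247 CPM in INT males, against 1.97, 3.52 and 2.01 CPM in NINT males. INT was above NINT in all female libraries and below it in all male libraries (difference 3.91, adjusted p = 0.0174). Cda9 had 2.44, 2.21 and 1.36 CPM in INT females, against 19.8, 20.2 and 18.9 CPM in NINT females, while the male groups overlapped (difference -3.37, adjusted p = 0.0182).

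The other positive differences were 2.07 for CG14022, 3.20 for neo, 3.68 for CG17127 (adjusted p = 0.0164 for each) and 5.20 for CG12017 (adjusted p = 0.0174). In CG12017 the NINT females held 1 count in all. The other negative differences were -2.22 for CG43773 (adjusted p = 0.0468), -3.08 for CG18673, now CAH5 (adjusted p = 0.0353), and -1.37 for CG10827, now Alp5 (adjusted p = 0.0482). CG10827 was below NINT in INT females (log2 -0.74) and above it in INT males (log2 0.63).

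aly, which drives transcription in spermatocytes, had 0 counts in INT females, against 0.978, 0.271 and 0.718 CPM in NINT females, and was at least 20.2-fold lower in INT females, taking 3 counts over the group as the floor. INT males had 6.47, 5.56 and 2.18 CPM of aly, against 4.60, 4.15 and 3.70 CPM in NINT males, and the fitted difference was -7.95 (adjusted p = 0.0311). CG5342 likewise had 0 counts in INT females, at least 4.97-fold below NINT females, with a fitted difference of -6.28 (adjusted p = 0.0468). Of the 12 genes, 7 were also called in the female fit alone.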

How the results depend on the processing

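None of the 103 tested genes named by the rule changed direction where it was called, in any alternative run, while 20 list medians took the other sign in one of them, and the number of calls moved widely. With 6 libraries (INT and NINT alone) 1320 entries were called, 822 higher and 498 lower, and with these less INT 3 there were 865, 668 and 197. Leaving out the 3 female libraries of highest Act88F gave 839, 660 and 179, DESeq2 gave 824, 646 and 178, and a fit of all 18 libraries, chosen after seeing the data, gave 403, 353 and 50. A filter of 5 CPM in 3 libraries left 9 lower calls. Leaving out 1 library at a time gave 4 to 663 calls, 4 to 536 higher and 0 to 127 lower. RLE scaling, no filter, a 2-fold limit, leaving out ribosomal RNA and counting identical entries once (chosen after seeing the data) kept the total within 1.5-fold.

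The count of 41 differences between the sexes was 489 with DESeq2, 22 with RLE scaling, 26 with the 5 CPM filter, 21 with no filter, 25 without ribosomal RNA genes and 25 with identical entries counted once. It was 5 to 702 when a library was left out, 9 of them without INT female 3 and 702 without INT male 3. The causes were not tested.

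The labels do not say whether replicate numbers pair the samples, and correlations of the deviations from the group means did not settle it. Libraries of the same number correlated at 0.44, 0.028 and 0.021, and those of different numbers at -0.29 to 0.28. The highest value, 0.44, was that of INT 1 with NINT 1. A replicate block left 3 calls (2 higher, 1 lower) in females and 7 in the comparison of sexes. Among the named genes that were called, 21 lost the call without INT 3, 67 to 78 without any other single INT or NINT library, 79 under the block and 0 with the 6 libraries. The fit without INT 3 was not repeated with identical entries counted once, so the count of 21 may depend on copies. Calls on few counts rest on little depth: CG17145 was called on 12 counts over INT and 92 over NINT, and CG12017 on 54 and 1.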
